A study of Mus musculus with 6 samples.

Results

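Cd14 and 8 genes of lipopolysaccharide and Toll-like receptor sensing were followed in uterine RNA from mice on day 4 of pregnancy. The members are Cd14, Ly96, Lbp, Tlr2, Tlr3, Tlr4, Tlr5, Myd88 and Ticam1, 9 of the 56748 genes in the tables, and all 9 had enough counts to be tested. Cd14 was chosen because it was lower in the libraries labelled Zip10 cKO. It was among the 8 genes that DESeq2 placed below an adjusted p of 0.05 as lower in that contrast, which was 0.04% of the 19980 genes to which DESeq2 gave an adjusted p. Its values in that contrast are therefore a description, with no test. The other 8 were chosen by function.

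The samples were 3 control libraries, with the genotype label WT, and 3 from mice with a conditional knockout of Zip10, the zinc importer encoded by Slc39a10, in the uterus. All were collected on day 4 at 1600 h. The sample labels call the tissue uterus and the series design calls it endometrium; the labels name neither the Cre line, the deleted exons nor the age of the mice. Whether the 3 libraries of a group are 3 animals is not said either, and p-values below therefore speak of the spread among libraries, which may be technical.

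Lipopolysaccharide, a component of the outer membrane of Gram-negative bacteria, is carried by the secreted protein Lbp to Cd14, a surface protein without a signalling domain of its own. Cd14 hands it to the complex of Tlr4 and Ly96 (also called MD-2), which signals through the adaptor Myd88 and, from endosomes, through Ticam1 (also called TRIF). Tlr2 senses bacterial lipoproteins, Tlr5 flagellin and Tlr3 double-stranded RNA. In the uterus Toll-like receptors as a family are known from epithelial cells as well as from macrophages and neutrophils, though not each receptor from every cell type.

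The libraries held 19643093 to 22809577 counts. Slc39a10 was at 54.6, 70.4 and 66.2 CPM (counts divided by the TMM-scaled library size) in controls 1, 2 and 3 and at 39.5, 72.5 and 79.8 CPM in cKO libraries 1, 2 and 3, so its total did not separate the groups; it also counts reads from exons that a deletion leaves, and every direction below is that of the libraries as labelled. By multidimensional scaling, cKO library 1 lay away from the rest, at -1.58 on the leading axis where the other 5 lay between -0.02 and 0.77. The markers of macrophages, stroma, smooth muscle, epithelium and endothelium were all detected, and of 9 neutrophil markers Ngp and Elane were below 0.1 TPM (the deposited abundance per transcript length) in every library.

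Promoter sequences were found in the RefSeq table for 5 members (Tlr2, Tlr3, Tlr5, Myd88 and Ticam1). Those of Tlr5 and Tlr3 are shown because Tlr5 was the receptor whose groups lay apart in CPM and Tlr3 the member that varied least among the controls. Each is the 250 bases before the RefSeq start of build GRCm38.p6, written 5′ to 3′ along the gene. Capitals mark a match to the GC box GGGCGG or to a strict form of the kappa-B site, GGGANNTTCC, searched on both strands. Looser forms of the kappa-B site were not searched, so a window without a match may still hold such a form.
Tlr5, chr1:182954538-182954787, plus strand: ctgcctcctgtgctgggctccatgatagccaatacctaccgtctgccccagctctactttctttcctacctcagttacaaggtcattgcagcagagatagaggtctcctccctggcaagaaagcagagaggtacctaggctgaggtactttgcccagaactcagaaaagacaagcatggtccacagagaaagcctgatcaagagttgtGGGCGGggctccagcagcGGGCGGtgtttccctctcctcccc
Tlr3, chr8:45410381-45410630, minus strand: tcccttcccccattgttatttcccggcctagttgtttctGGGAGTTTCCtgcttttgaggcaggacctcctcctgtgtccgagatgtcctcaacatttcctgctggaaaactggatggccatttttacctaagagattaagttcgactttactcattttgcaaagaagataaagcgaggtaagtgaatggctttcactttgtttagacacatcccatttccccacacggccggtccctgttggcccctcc
The Tlr5 window held 2 GC boxes and no kappa-B match, and the Tlr3 window held 1 kappa-B match and no GC box. Of 32851 RefSeq promoter windows of this length, 32.7% held a GC box and 1.21% the strict kappa-B letters. Also searched on both strands were the interferon-stimulated response element GAAANNGAAA (2.98% of windows), the PU.1 core GAGGAA (23.3%) and the progesterone receptor element GNACANNNTGTNC (0.387%). Myd88 held 1 match to the interferon element and Ticam1 1 match to the PU.1 core, and these letters of the progesterone receptor element were in none of the 5 windows. A match to letters is a description of the sequence and not a bound site.

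Levels of different genes can be set side by side only per length, so deposited TPM was used for their order. Over the 6 libraries the adaptor Myd88 had the highest mean level, 91.7 TPM, followed by the carrier Lbp at 72.2 TPM and the co-receptor Cd14 at 35.9 TPM. Ly96 (13.4 TPM), Ticam1 (11.5), Tlr3 (8.77), Tlr4 (7.75) and Tlr2 (5.90) followed, and the flagellin receptor Tlr5 was last at 0.747 TPM. The ranges of neighbours in this order overlapped except between Cd14 and Ly96 and between Tlr2 and Tlr5. Lbp, with a range from 41.6 to 104 TPM, still exceeded Cd14 in each of the 6 libraries. The accessory proteins that carry or hold lipopolysaccharide were thus more abundant as RNA than the receptor Tlr4, whose range was 5.42 to 9.73 TPM.

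Of the 8 members chosen by function, 0 met the threshold of 0.05 on edgeR's adjusted p, and the same held for 0% of the 16737 genes tested, among which the lowest adjusted p was 0.626. Before adjustment 1 of the 8, Tlr5, was under 0.05, as were 1081 genes (6.46% of those tested). Fitted differences of the members ran from -0.53 (Cd14) to 1.00 (Tlr5) on the log2 scale, with a median of -0.03 against -0.0024 over all genes tested; 4 members were above 0 and 5 below. In CPM the 3 cKO libraries lay entirely below the 3 controls for Cd14, which was chosen by this difference, as for 5.78% of all genes tested. They lay entirely above the controls for Tlr5, as for 6.93%. Of the 8 members chosen by function, 1, Tlr5, thus lay apart, beside 12.7% of all genes in either direction. With 1 library left out, 2 to 4 of the 9 members lay apart, Cd14 included, where 19.6% to 26.6% of all genes did. Cd14 and Tlr5 were among them each time. Lbp as lower and Tlr4 as higher joined them without control 3 or without cKO library 2. Tlr3 joined as lower without control 2 or without cKO library 1, and Myd88 as lower without cKO library 3.

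**Figure D1:**
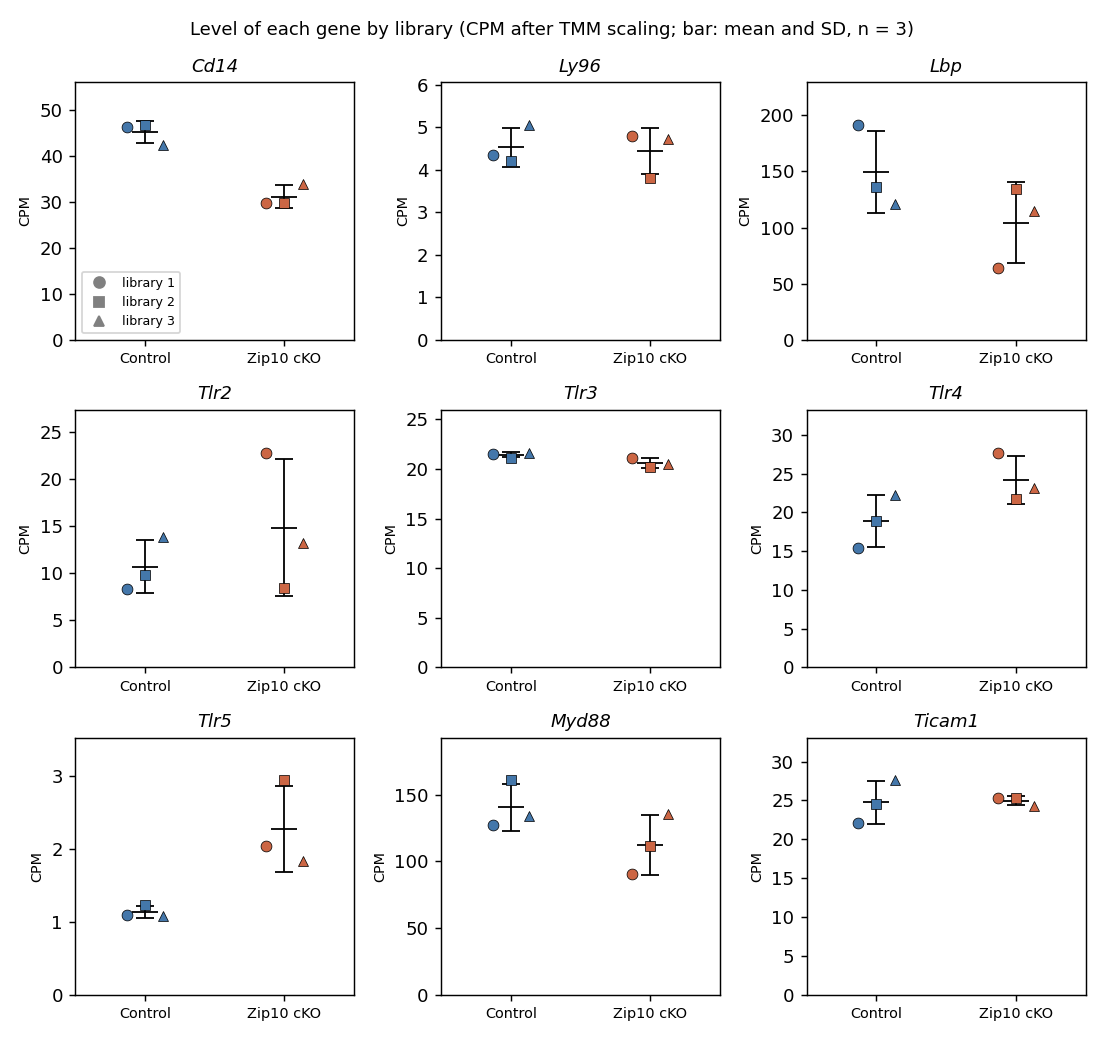
CPM of each of the 9 genes (vertical axis, starting at 0) in the 3 control and 3 Zip10 cKO libraries; each point is a library, its shape gives the library number, and the bars are the mean and SD of 3 libraries. The Cd14 points of the cKO libraries (29.8 to 34.0 CPM) lie below all controls (42.4 to 46.7 CPM), those of Tlr5 lie above, and the other 7 genes overlap.

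Cd14, the lipopolysaccharide co-receptor (ENSMUSG00000051439), was at 46.4, 46.7 and 42.4 CPM in controls 1, 2 and 3 and at 29.8, 29.8 and 34.0 CPM in cKO libraries 1, 2 and 3. The cKO libraries lay below every control, and the gap between the groups was wider than the range within either. The means were 45.2 ± 2.40 and 31.2 ± 2.45 CPM (SD, n = 3 each), a fitted fold of 0.691 and a log2 fold change of -0.53 ± 0.10 (SE). Between 627 and 1055 counts of Cd14 were found per library. In deposited TPM the values were 40.7, 44.9 and 39.7 in controls and 29.3, 28.2 and 32.7 in cKO libraries, which again did not overlap. Leaving out any 1 library gave log2 fold changes from -0.60 to -0.50. In bulk tissue, fewer cells of a type and less RNA per cell cannot be told apart.

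Lbp, the secreted protein that carries lipopolysaccharide to Cd14 (ENSMUSG00000016024), was at 191, 136 and 121 CPM in controls and at 64.0, 134 and 115 CPM in cKO libraries 1, 2 and 3. The groups overlapped, with control 1 high and cKO library 1 low. The log2 fold change was -0.52 ± 0.28 (SE; edgeR adjusted p = 0.756), a fold of 0.698 with a 95% interval from 0.446 to 1.09. It was close to that of Cd14 in size, but the spread within groups was 24.7% and 34.7% of the mean for Lbp and 5.31% and 7.85% for Cd14. Without cKO library 1 the Lbp value was -0.26 and without control 1 it was -0.31.

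Ly96, the partner that completes the lipopolysaccharide pocket of Tlr4 (ENSMUSG00000025779), was at 4.35, 4.20 and 5.05 CPM in controls and 4.80, 3.82 and 4.72 CPM in cKO libraries. The groups overlapped almost fully. The fold was 0.980 with a 95% interval from 0.708 to 1.36 (edgeR adjusted p = 0.981). Whether Ly96 and Cd14 differed in fold was not tested.

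Tlr4, the signalling receptor for lipopolysaccharide (ENSMUSG00000039005), was at 15.5, 18.9 and 22.2 CPM in controls and at 27.7, 21.7 and 23.2 CPM in cKO libraries 1, 2 and 3. Its mean was higher in the cKO libraries, where that of Cd14 was lower, and only control 3 reached into the cKO range. The log2 fold change was 0.36 ± 0.16 (SE; edgeR adjusted p = 0.747), a fold of 1.28 with a 95% interval from 0.988 to 1.66. In deposited TPM the groups did not overlap, at 5.42, 6.41 and 7.96 in controls and 9.73, 8.58 and 8.38 in cKO libraries. The log2 fold change was 0.23 without control 1.

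The balance of co-receptor to receptor RNA is set by both genes. There were 7.50, 7.01 and 4.99 TPM of Cd14 per TPM of Tlr4 in controls and 3.02, 3.28 and 3.90 in cKO libraries, means of 6.50 ± 1.33 and 3.40 ± 0.455 (SD, n = 3 each). Ly96 per Tlr4 was 2.22, 1.96 and 1.88 in controls and 1.54, 1.31 and 1.73 in cKO libraries. Both ratios lay lower in every cKO library than in every control. Lbp per Cd14 overlapped, at 2.00 ± 0.477 and 2.04 ± 0.616 (SD, n = 3 each). These ratios share the Cd14 values by which the gene was chosen or the Tlr4 values above, and no test was made of them.

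Tlr5, the receptor for bacterial flagellin (ENSMUSG00000079164), was at 1.10, 1.24 and 1.09 CPM in controls and 2.04, 2.94 and 1.84 CPM in cKO libraries. All cKO libraries were above all controls. The fold was 1.99 with a 95% interval from 1.25 to 3.18, and the log2 fold change of 1.00 ± 0.30 (SE) did not pass over all genes (edgeR adjusted p = 0.747, unadjusted p = 0.00888). The gene rested on 25, 25 and 23 counts in controls and 43, 64 and 37 in cKO libraries. In deposited TPM the values were 0.32, 0.44 and 0.39 against 1.10, 1.36 and 0.87, a wider gap than in CPM, because the length by which TPM divides also differed.

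Tlr2, which senses bacterial lipoproteins together with Tlr1 or Tlr6 (ENSMUSG00000027995), was at 8.35, 9.83 and 13.8 CPM in controls and 22.8, 8.47 and 13.2 CPM in cKO libraries. A single library, cKO 1, lay above the control range. The log2 fold change of 0.48 ± 0.35 (SE; edgeR adjusted p = 0.782) was 0.02 without that library.

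Tlr3, the endosomal receptor for double-stranded RNA (ENSMUSG00000031639), was at 21.5, 21.1 and 21.6 CPM in controls and 21.2, 20.2 and 20.5 CPM in cKO libraries. It was the least variable member, with a spread of 1.16% of the mean in controls and 2.48% in cKO libraries. Its fold was 0.961 with a 95% interval from 0.810 to 1.14 (edgeR adjusted p = 0.910). In deposited TPM the means stood the other way, 8.34 ± 0.648 in controls and 9.20 ± 0.777 in cKO libraries (SD, n = 3 each), so no direction is given.

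Myd88, the adaptor shared by most Toll-like receptors and the interleukin-1 receptors (ENSMUSG00000032508), was at 127, 161 and 134 CPM in controls and 90.9, 111 and 136 CPM in cKO libraries. cKO libraries 1 and 2 were below every control and cKO library 3 was not. The log2 fold change was -0.32 ± 0.16 (SE; edgeR adjusted p = 0.747), a fold of 0.801 with a 95% interval from 0.623 to 1.03, and -0.19 without cKO library 1. In the GENCODE M21 annotation Myd88 overlaps Acaa1a on the opposite strand, a gene with 1330 to 1909 counts per library, and whether counting used the strand is not given in the sources used here, so reads of the 2 genes may be mixed.

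Ticam1, the adaptor of Tlr3 and of endosomal Tlr4 (ENSMUSG00000047123), was at 22.1, 24.6 and 27.6 CPM in controls and 25.3, 25.3 and 24.3 CPM in cKO libraries. The cKO libraries lay inside the control range. Its fold was 1.01 with a 95% interval from 0.835 to 1.22 (edgeR adjusted p = 0.988). The ratio of Myd88 to Ticam1 overlapped between groups, at 8.98 ± 1.33 and 7.10 ± 1.55 (SD of TPM ratios, n = 3 each).

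**Figure D2:**
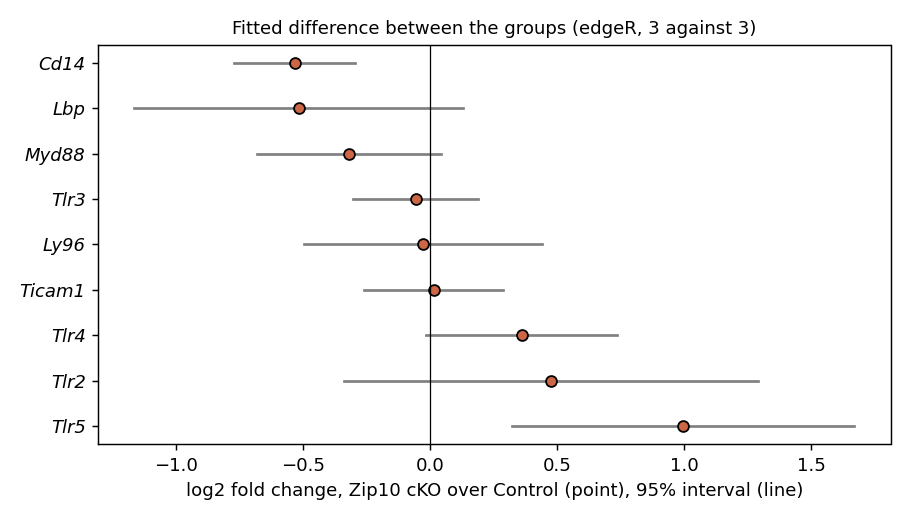
Log2 fold change of Zip10 cKO over control for each gene (point) with its 95% interval (line), from edgeR's fit to 3 libraries a group; the vertical line marks no difference. Values run from -0.53 for Cd14, which was chosen by this value, to 1.00 for Tlr5. Among the genes chosen by function, only the interval of Tlr5 excludes 0, and the interval of Cd14 is no test.

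The gene tables also give each gene's mean transcript length, weighted by the estimated share of its transcripts, which was not used to choose any member. Of the 7 members with more than 1 listed transcript, Tlr5 was the one whose groups did not overlap. Its length was 4269, 3829 and 3776 bases in controls and 2712, 2965 and 2985 bases in cKO libraries, so shorter transcripts took a larger estimated share in every cKO library. Lengths lay apart as shorter for 6.16% and as longer for 6.21% of the 13923 tested genes with more than 1 transcript. The means were 3958 ± 271 and 2887 ± 152 bases (SD, n = 3 each; exact two-sided permutation p = 0.1, the smallest that 3 against 3 allows; adjusted p = 0.7 over the 7 members). With 23 to 64 counts per library, these shares rest on few reads. Cd14 had a length of 1562 ± 7.35 bases in controls and 1570 ± 17.6 bases in cKO libraries (SD, n = 3 each), with overlap.

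**Figure D3:**
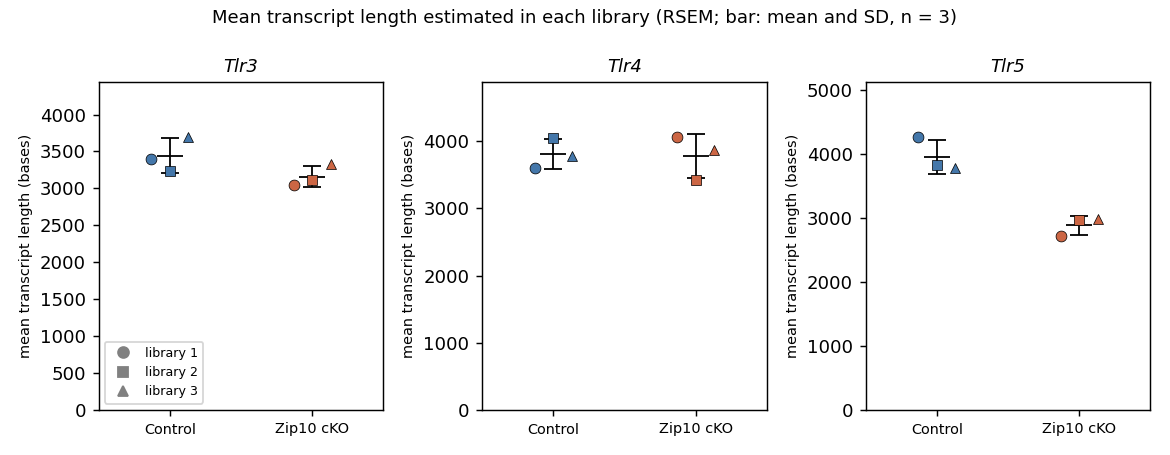
Mean transcript length in bases (vertical axis, starting at 0) of Tlr3, Tlr4 and Tlr5 by library, with mean and SD of 3 libraries. The Tlr5 values of the cKO libraries (2712 to 2985 bases) lie below those of the controls (3776 to 4269 bases), and those of Tlr3 and Tlr4 overlap.

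Among all 12 Toll-like receptors of the tables, 10 had more than 1 transcript, and in 4 of them the lengths of the groups lay apart. Among all genes tested with more than 1 transcript, 6.16% lay entirely shorter and 6.21% entirely longer in the cKO libraries. Besides Tlr5 the receptors with lengths apart were Tlr6 and Tlr8, shorter in the cKO libraries, and Tlr7, longer; they were singled out after their values were seen. Tlr6 ranged from 2812 to 3578 bases in controls and from 1708 to 2185 in cKO libraries, on 29 to 57 counts. Tlr7, a receptor for single-stranded RNA, ranged from 1380 to 1553 bases in controls and from 2435 to 3774 in cKO libraries, on 64 to 157 counts.

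Which cells carry Cd14 cannot be read from bulk RNA, so its level was set beside summed cell type markers in TPM. The 12 macrophage and monocyte markers were all above 0 in log2 fold change, with a median of 0.58 and none past the adjusted threshold in edgeR, and among them Lyz2, lysozyme, was at 0.09 and the complement gene C1qa at 0.53. Their summed level was 605, 446 and 561 TPM in controls and 1103, 490 and 693 TPM in cKO libraries, with overlap. Cd14 per 1000 TPM of these markers was 67.2, 101 and 70.8 in controls and 26.6, 57.5 and 47.2 in cKO libraries, lower in every cKO library. All ratios to cell type markers share the Cd14 values by which the gene was chosen, and no test was made of them.

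Against epithelial markers the groups overlapped. Of the 10 epithelial markers 8 were below 0, at a median of -0.23 on the log2 scale, and they summed to 1041, 958 and 711 TPM in controls and 611, 860 and 776 TPM in cKO libraries. Cd14 per 1000 TPM of them was 39.1, 46.9 and 55.9 in controls and 48.0, 32.8 and 42.2 in cKO libraries, means of 47.3 ± 8.40 and 41.0 ± 7.69 (SD, n = 3 each). Against endothelial markers it overlapped too, at 141 ± 20.6 and 112 ± 14.6 (SD, n = 3 each). The 8 stromal markers, by contrast, summed higher in every cKO library, from 5888 to 6826 TPM, than in the controls, from 3778 to 5279 TPM, and Cd14 per 1000 TPM of them was 9.24 ± 1.63 and 4.84 ± 0.644 (SD, n = 3 each). The 6 smooth muscle markers were all above 0 in log2 fold change, at a median of 0.55. They summed to 4225, 3977 and 7771 TPM in controls and 10791, 6757 and 7208.5 TPM in cKO libraries, with overlap. Cd14 per 1000 TPM of them was 8.68 ± 3.2 and 3.81 ± 0.961 (SD, n = 3 each), lower in every cKO library. Neutrophil markers summed to 19.3 to 30.3 TPM in controls and to 109, 18.0 and 62.4 TPM in cKO libraries 1, 2 and 3, of which Retnlg and Csf3r were the most abundant. Against neutrophil markers the Cd14 ratio overlapped, at 1670 ± 576 and 786 ± 686 (SD, n = 3 each). The part of this cell mix in the Cd14 values was not tested.

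**Figure D4:**
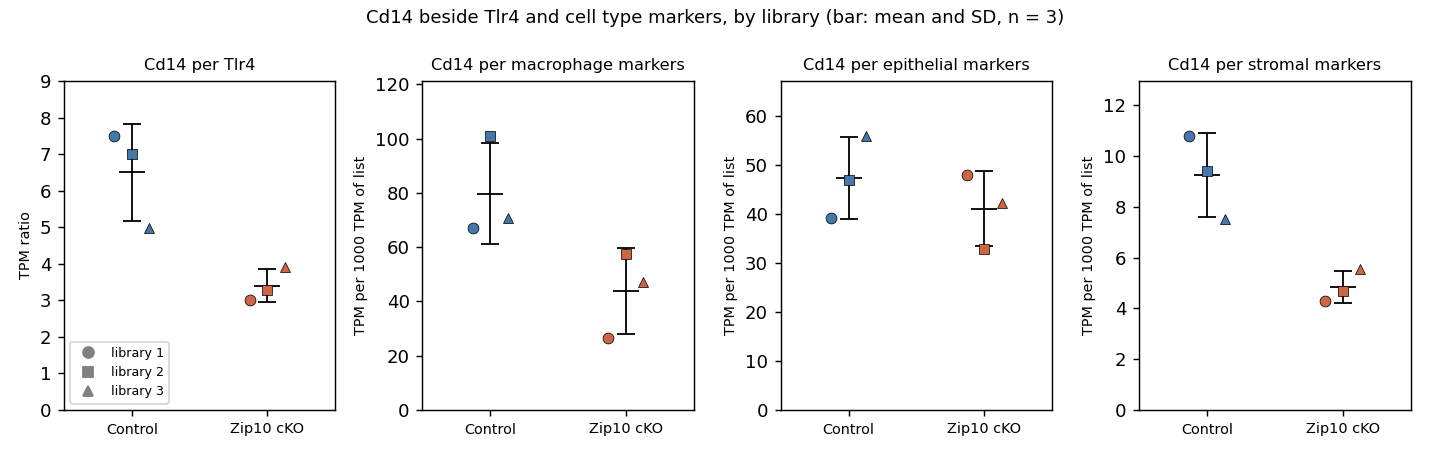
Cd14 in TPM per TPM of Tlr4 and per 1000 summed TPM of macrophage, epithelial and stromal markers (vertical axes, starting at 0) by library, with mean and SD of 3 libraries. The groups lie apart for Tlr4 (4.99 to 7.50 against 3.02 to 3.90), macrophage and stromal markers, and overlap for epithelial markers (39.1 to 55.9 against 32.8 to 48.0). All panels share the Cd14 values by which the gene was chosen.

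The rest of the pathway was described by lists chosen by function, with earlier results of these data known. Of 92 pathway genes tested, edgeR's adjusted threshold was met by 0, as in DESeq2 and limma-voom, and 2, Tlr8 and Aoah, had an unadjusted p under 0.05, or 2.17% beside 6.46% of all genes tested. In CPM 3 of the 92 lay entirely higher and 2 entirely lower in the cKO libraries, or 3.26% and 2.17%, beside 6.93% and 5.78% of all genes tested. The 8 other Toll-like receptors had a median log2 fold change of 0.21, 7 above 0, with no receptor whose groups lay apart in CPM. The direction of Tlr7 depended on the measure. Its means in controls and cKO libraries were 3.37 ± 0.530 and 5.08 ± 2.27 CPM but 3.44 ± 0.704 and 2.57 ± 1.71 TPM (SD, n = 3 each), with overlap in both. Tlr8, an endosomal receptor, was at 1.49, 2.22 and 2.27 CPM in controls and 7.46, 2.16 and 3.08 CPM in cKO libraries. Tlr9, the receptor for unmethylated CpG DNA, was at 1.71, 1.83 and 2.60 CPM in controls and 6.65, 2.16 and 2.78 CPM in cKO libraries. In both it was cKO library 1 that stood high, and without it the median of the list was 0.05.

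The 18 other adaptors and proximal kinases had a median of 0.05, with 12 above 0 and 3 whose groups lay apart (11.1% as higher and 5.56% as lower, beside 6.93% and 5.78% of all genes tested). Irak3, a kinase-dead brake on Myd88 signalling, was at 9.80, 9.54 and 11.1 CPM in controls and 28.3, 11.3 and 11.7 CPM in cKO libraries. Tirap, which bridges Tlr4 and Tlr2 to Myd88, was at 25.1, 31.9 and 27.5 CPM in controls and 31.9, 32.2 and 33.6 CPM in cKO libraries. For Tirap the gap was narrow, with 31.87 CPM in control 2 and 31.89 CPM in cKO library 1. Irak1, singled out after its values were seen, was the third, at 133 ± 1.17 and 128 ± 2.47 CPM (SD, n = 3 each). Its gap was narrow too, with 131.67 CPM in control 3 and 130.75 CPM in cKO library 1. In deposited TPM the Irak1 groups overlapped and the means stood the other way, 63.3 ± 4.30 in controls and 69.2 ± 8.82 in cKO libraries (SD, n = 3 each).

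The 13 IKK, NF-kappa-B and IRF genes had a median of 0.02. Irf3, the transcription factor downstream of Ticam1, was at 65.6, 67.2 and 64.6 CPM in controls and 54.4, 59.1 and 59.2 CPM in cKO libraries, below every control (log2 fold change -0.19 ± 0.09 (SE), edgeR adjusted p = 0.747). Irf5 was at 11.2 ± 0.537 and 13.8 ± 2.67 CPM (SD, n = 3 each). The 13 negative regulators had a median of 0.07 and none lay apart, with the RNase gene Zc3h12a at a log2 fold change of 0.33 ± 0.24 and the interleukin-33 receptor Il1rl1 at 0.43 ± 0.32 (SE). Of the 6 genes of receptor folding and trafficking, with a median of -0.08, Unc93b1, which escorts endosomal receptors, was at 0.33 ± 0.18 and Hsp90b1, the chaperone of Toll-like receptors in the endoplasmic reticulum, at -0.34 ± 0.22 (log2 fold change, SE).

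Of 10 genes of lipopolysaccharide transfer and uptake, 8 were tested, with a median of 0.25 and 6 above 0. Aoah, which removes acyl chains from lipopolysaccharide, was at 4.09, 2.57 and 3.16 CPM in controls and 7.56, 3.86 and 5.61 CPM in cKO libraries, with overlap between control 1 and cKO library 2 (log2 fold change 0.79 ± 0.30 (SE), edgeR adjusted p = 0.747). Itgam, the integrin CD11b of myeloid cells, was at 12.8, 13.7 and 21.2 CPM in controls and 61.3, 14.8 and 24.1 CPM in cKO libraries. The median of the list was 0.12 without cKO library 1 and 0.56 without control 3.

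Inflammatory target genes had 15 of 20 members tested, a median of 0.23 and 10 above 0, with none whose groups lay apart. Tnf was at 1.23, 0.543 and 0.567 CPM in controls and 3.04, 0.690 and 1.04 CPM in cKO libraries. The acute phase gene Saa3 was at 0.440, 0.395 and 1.04 CPM in controls and 5.75, 0.506 and 0.497 CPM in cKO libraries. cKO library 1 alone was high for both, and without it the median of the list was 0.0043. Other pattern recognition receptors, 11 tested, had a median of 0.03, and Ifih1, the RNA sensor MDA5, was higher in each cKO library (24.4 to 28.4 CPM) than in each control (21.5 to 22.6 CPM), at a log2 fold change of 0.25 ± 0.11 (SE; edgeR adjusted p = 0.747); Aim2, a DNA sensor, was at -0.14 ± 0.19.

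**Figure D5:**
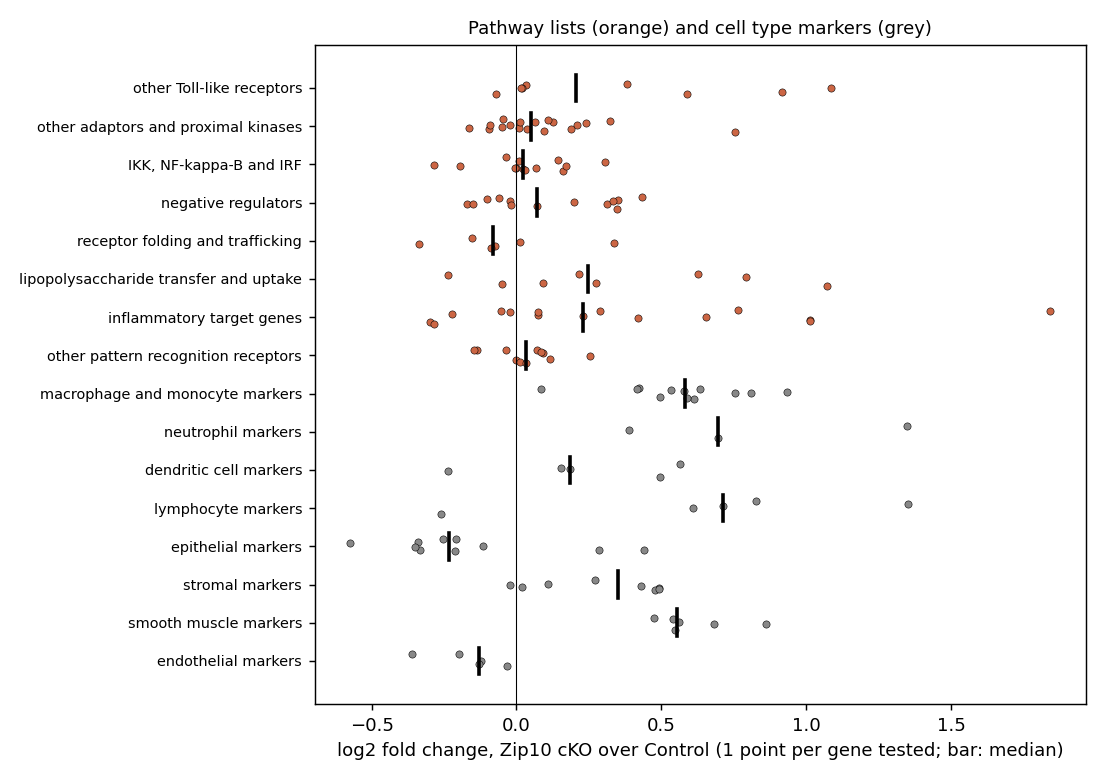
Log2 fold change of Zip10 cKO over control (horizontal axis) for every tested gene of the pathway lists (orange) and cell type marker lists (grey); each point is a gene and the black bar is the median of its list. Pathway medians lie between -0.08 and 0.25, those of macrophage markers at 0.58 and of epithelial markers at -0.23.

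Among 10761 other genes with a mean of at least 10 CPM, the pattern of Cd14 over the 6 libraries was most closely followed by BC064078, Fst, Etfbkmt, AU021092 and Ccdc34. Likeness was the root mean square difference of log2 CPM centred on each gene's mean, 0.0442 for BC064078 and 0.0874 for Fst, the activin-binding protein follistatin. Fst was at 90.5, 91.8 and 86.4 CPM in controls and 68.3, 65.8 and 74.1 CPM in cKO libraries. Since Cd14 was chosen by its difference between groups, genes near it differ in the same direction by construction.

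The protein-coding genes next to Cd14 in the RefSeq order (GRCm38.p6) did not share one pattern. Tmco6, the nearest on one side, was at 8.13, 9.98 and 10.5 CPM in controls and 7.08, 7.78 and 7.75 CPM in cKO libraries (log2 fold change -0.34 ± 0.17 (SE)). E230025N22Rik, the nearest on the other, was at -0.60 ± 0.33 (SE), from about 1 CPM. Both lay below every control in the cKO libraries, as did 5.78% of all genes tested. For E230025N22Rik the gap was narrow, with 0.803 CPM in control 3 and 0.782 CPM in cKO library 2. The groups overlapped for Apbb3 (-0.22), Slc35a4 (0.04), Ndufa2 (-0.22) and Ik (0.02).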

How the data were processed

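Uterine RNA of 6 mouse libraries was sequenced, 3 control and 3 Zip10 cKO, grouped by title. Libraries were made from poly(A) RNA with random priming, per the labels' protocols. Reads were handled on build GRCm39 with RSEM 1.3.3, STAR 2.7.10a and fastp 0.23.2, per the submitters' processing notes, which also list edgeR 3.38.4; whether counting used the strand, and with which annotation release, is not given in the sources used here. Per library the authors deposited RSEM expected counts, TPM and gene length per the file headers; TPM keeps no depth. Symbols came from GENCODE M21 (91.8% of 56748 IDs matched; 1 of 171 list genes, Rigi, did not).

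Expected counts were rounded, filtered by filterByExpr (minimum count 10, total 15), scaled by TMM and tested with the quasi-likelihood method of edgeR 4.0.16 (robust, two-sided, Benjamini-Hochberg over 16737 genes, threshold 0.05) in R 4.3.3. SE came from the F statistic and log CPM used a prior count of 2. Tested on simulated counts for these genes in the cKO against control comparison, with 50 genes changed per fold, the test recovered 32% of those changed 1.5-fold, 78% of 2-fold, 94% of 4-fold and 100% of 8-fold, with 12 false calls. The changed genes were drawn from those with a mean of at least 50 counts. The recovery therefore does not cover Tlr5, with means of 24.3 counts in controls and 48 in cKO libraries. Simulated counts were drawn independently for each gene, with no library standing apart as cKO library 1 did. Recovery in the real libraries may thus differ. Library pairs differed beyond sampling noise (lowest chi-square over degrees of freedom 14.3). Members and lists were chosen with earlier results of these data known. Genes named were the members, 2 per pathway list by smallest p, up to 2 abundant markers per list, 5 genes most like Cd14, its neighbours and Slc39a10. Intervals cover the spread between libraries. Alternatives were DESeq2 1.42.0, limma-voom and limma-trend (limma 3.58.1), other normalizations and filters, TPM, a length trend, the replicate block and leaving out each library. Figures were drawn with matplotlib 3.10.9.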

Additional observations from a re-analysis of the deposited data

How the results depend on the processing

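Among the alternative log2 fold changes of the members, 11 changed sign, all in Ly96, Ticam1 or Tlr3, whose differences were near 0. The medians of the lists of IKK, NF-kappa-B and IRF, of negative regulators, of other adaptors and of receptor folding also crossed 0, in 6 alternative values between -0.011 and 0.028. Ly96 was at 0.039 and 0.041 on the log2 scale with TPM (pseudocounts 1 and 0.1), at 0.036 with the length trend removed, and between -0.089 and 0.064 with a library left out. Ticam1 was at -0.0038 (upper-quartile factors) and -0.013 (length trend removed), and between -0.072 and 0.087 with a library left out. Tlr3 was at 0.13 and 0.14 with TPM and pseudocounts of 1 and 0.1. The cause was not tested. The members past the threshold numbered 0 in each alternative run except DESeq2, which called 1, Cd14, the gene chosen for it. The members whose groups lay apart, the chosen Cd14 among them each time, numbered 2 to 4 with a library left out, where 19.6% to 26.6% of all genes tested lay apart. In TPM they numbered 3, where 12.9% of all genes lay apart. Both counts were added after the data were seen. Cd14 stayed within 1 SD of its value under each alternative, from -0.60 to -0.46. With the replicate number as a block, 0 members were called and Cd14 was at -0.54. Deviations of same-numbered libraries correlated at 0.0889, 0.248 and 0.182. These values were not set beside those of differently numbered libraries, so whether same-numbered libraries share a batch was not tested. At 23 to 64 counts, depth limits Tlr5 most.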
